A study of Schizosaccharomyces pombe with 2 samples.

Results

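The nuclear tRNA genes of fission yeast were described from the annotation deposited with 2 ChIP-seq libraries of H3K9me2. Members were all tRNA entries on chromosomes 1 to 3, with 1 gene per identifier, and they numbered 170 of the 195 tRNA entries of the annotation. The remaining 25 entries lay on the mitochondrial genome. Both libraries came from Schizosaccharomyces pombe cells labelled Swi6D, which lack the HP1 protein Swi6, grown overnight in YES medium and precipitated with a monoclonal antibody against dimethylated lysine 9 of histone H3. They were labelled replicate 1 and replicate 2, and no wild-type or input library was part of the samples analysed here. The file analysed here holds positions and names but no read counts or signal, so depth is unknown and no library could be compared with another. All values below are therefore counts, distances and sequences of 1 annotated genome. Shares of genes are set beside the share of bases or of protein-coding genes in the same windows, and no test was run, because genes of 1 genome are not replicates and many are copies of each other.

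A tRNA carries an amino acid to the ribosome and reads the codon through its anticodon, the triplet in the middle of the molecule. tRNA genes are transcribed by RNA polymerase III from promoters inside the gene, the A box and the B box, which the factor TFIIIC binds, and transcription ends at a short run of T just behind the gene. At fission yeast centromeres, tRNA genes flank the heterochromatic repeats and the central domain where the kinetochore forms, and several of them are known to act as barriers that keep H3K9 methylation in place.

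The gene sequences that recur at the centromeres are shown first, because most of the counts below turn on a few families of identical copies. Each is given 5′ to 3′ from the RefSeq genome ASM294v3, whose chromosome lengths equal those of the deposited annotation. The first run of capitals is the anticodon, read from the sequence. A second run of capitals, where there is one, is the B box, searched as GGTTCGA followed by any 2 bases and CC.
SPATRNAALA.04 (chromosome 1, 3765008 to 3765081, minus strand): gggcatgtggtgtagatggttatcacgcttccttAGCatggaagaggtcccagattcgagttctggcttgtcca
SPATRNAVAL.04 (chromosome 1, 3710739 to 3710821, minus strand): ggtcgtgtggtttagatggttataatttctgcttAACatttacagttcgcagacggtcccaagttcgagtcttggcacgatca
SPATRNAILE.03 (chromosome 1, 3768290 to 3768363, plus strand): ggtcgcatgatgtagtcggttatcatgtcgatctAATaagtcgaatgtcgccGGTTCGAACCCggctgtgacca
SPBTRNALEU.06 (chromosome 2, 1598745 to 1598845, minus strand): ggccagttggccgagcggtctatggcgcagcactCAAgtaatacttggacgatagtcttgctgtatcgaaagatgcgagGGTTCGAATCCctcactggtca
The alanine AGC sequence occurred in 9 genes, 7 of them within 100 kb of a centromere feature and 4 inside one. The valine AAC sequence occurred in 8 genes, all 8 within 100 kb and 4 inside. The isoleucine AAT sequence occurred in 6 genes, all 6 within 100 kb and 4 inside. The leucine CAA sequence occurred in 4 genes, all 4 within 100 kb and 3 inside, and no other leucine gene had that anticodon. These families therefore differed in how many of their copies lay outside the centromeric regions, from 2 for alanine to 0 for the other 3.

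Chromosome 2 carried the most tRNA genes, 67, followed by chromosome 1 with 56 and chromosome 3 with 47. Relative to chromosome length the order was different. Chromosome 3, the shortest, had 1.92 tRNA genes per 100 kb, chromosome 2 had 1.48 and chromosome 1 had 1. Genes were counted by the amino acid of the identifier. SPBTRNAASP.03 is thus under aspartic acid, although its sequence reads as arginine, as described below. Every amino acid was served by at least 3 genes. Leucine and serine had 13 genes each. Valine, alanine, lysine, arginine and glycine had 12 each, threonine and glutamic acid 10, isoleucine and proline 9, and aspartic acid 8. Methionine had 7 genes, glutamine and asparagine 6, phenylalanine 5, tyrosine and histidine 4, and cysteine and tryptophan 3. Several amino acids were missing from a chromosome. Glutamine, asparagine and histidine had no gene on chromosome 1, cysteine had its 3 genes on chromosome 1 alone, and tyrosine and tryptophan had none on chromosome 3. Chromosome 3 held 6 of the 12 arginine genes but 1 of the 12 alanine genes.

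Across the 20 amino acids the number of genes followed the share of codons in the protein-coding genes, with Pearson's r of 0.82 and Spearman's rho of 0.84. Codons were counted over the 5155 coding sequences of the RefSeq annotation. Genes were counted by identifier, which leaves SPBTRNAASP.03 under aspartic acid and not under arginine. These are descriptions over 20 points, which share 1 genome, and no p-value is given. Leucine, with 9.87% of codons, and serine, with 9.42%, were highest on both measures by this count. Tryptophan, with 1.12%, had the lowest codon share and, with cysteine, the fewest genes. The genes within 100 kb of a centromere had r of 0.50 and rho of 0.65 and those farther away had r of 0.55 and rho of 0.45, so neither subset alone was as close to codon use as the whole. Arginine had 12 genes for 4.87% of codons, while asparagine had 6 genes for 5.21%.

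The 170 genes held 45 different anticodons. A single gene carried each of 12 anticodons, and 8 of these 12 genes had an intron in RefSeq. Another 15 anticodons had 5 genes or more. The largest groups were valine AAC, alanine AGC and lysine CTT with 9 genes each. Isoleucine AAT, arginine ACG and glycine GCC followed with 8 genes each, the arginine group including SPBTRNAASP.03, described below. All genes of 2 anticodons lay within 100 kb of a centromere feature, leucine CAA with 4 genes and arginine TCG with the single gene SPCTRNAARG.10. There were 24 anticodons with no gene in these windows.

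**Figure D1:**
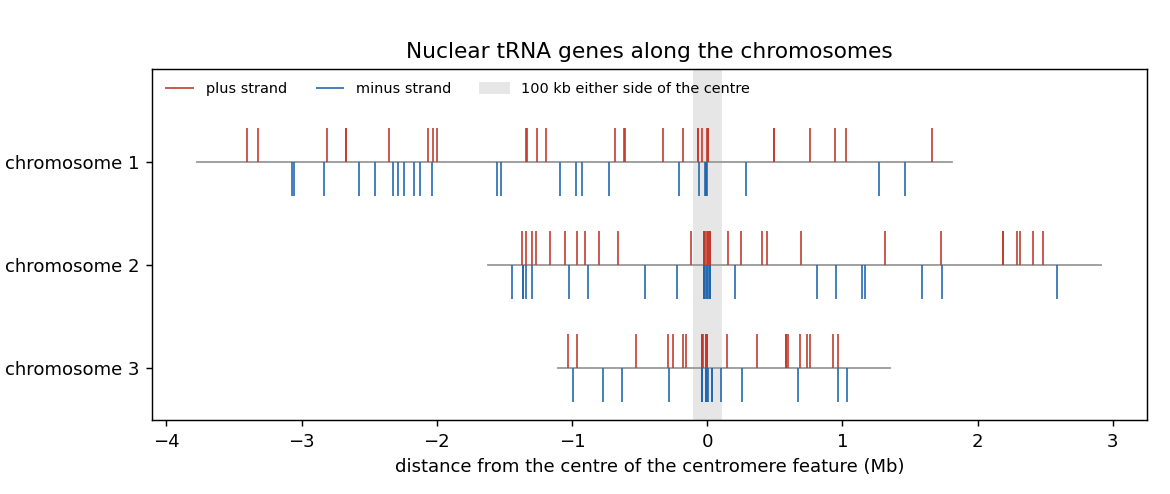
Position of each nuclear tRNA gene on the 3 chromosomes, in Mb from the centre of the centromere feature, with plus-strand genes drawn upwards and minus-strand genes downwards. Genes were densest around the centromere of every chromosome, and 60 of the 170 lay within 100 kb of a centromere feature.

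The annotation has 1 centromere feature per chromosome, of 35735 bases on chromosome 1, 42484 on chromosome 2 and 66100 on chromosome 3. Within 100 kb of these features or inside them lay 60 tRNA genes, 35.3% of all, in 5.92% of the bases. Of the 5155 protein-coding genes, 265 or 5.14% lay in the same windows, and of 237 long terminal repeats (LTRs) of retrotransposons, 5 or 2.11%. tRNA genes were thus placed at 8.06 per 100 kb near the centromeres and 0.93 per 100 kb elsewhere, a ratio of 8.67. The ratio was not carried by 1 chromosome. The density near the centromere was 4.67 per 100 kb against 0.842 elsewhere on chromosome 1, 11.1 against 0.931 on chromosome 2, and 8.27 against 1.14 on chromosome 3. In number, 11 of 56 genes lay near centromere 1, 27 of 67 near centromere 2 and 22 of 47 near centromere 3.

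Most of these genes were much closer than 100 kb. Inside the centromere features, which make up 1.15% of the bases, lay 27 genes or 15.9%, and 24 more lay within 5 kb outside them. Widening the window from 5 kb to 50 kb added only 5 genes, from 51 to 56. The outermost gene counted as near was SPBTRNATHR.06, a threonine gene 98239 bases from centromere 2, and the next one outward was SPCTRNASER.10, a serine gene 116189 bases from centromere 3. At 5 kb the last gene inside was SPCTRNASER.09 with 4194 bases and the first outside was SPCTRNAVAL.12 with 5043 bases.

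The 2 sides of a centromere were unequal. To the left of centromere 1, 5 genes lay within 100 kb, and to the right there was none. The first gene on the right was SPATRNALEU.04, 269606 bases away, which was also the most isolated tRNA gene of chromosome 1, with its nearest tRNA neighbour 206042 bases off. Centromere 2 had 12 genes within 100 kb to its left and 6 to its right, of which 11 and 6 were within 5 kb. Centromere 3 had 7 genes within 100 kb to its left and 3 to its right, of which 5 and 1 were within 5 kb. These counts depend on where the features end. At centromere 2 SPBTRNATYR.03, SPBTRNALEU.07 and SPBTRNAGLY.08 on the right counted as inside. Their copies on the left, SPBTRNATYR.02, SPBTRNALEU.06 and SPBTRNAGLY.07, counted as outside. At centromere 3 SPCTRNALYS.10 lay inside the left edge, and its identical copy SPCTRNALYS.11 lay outside on the right. The innermost flanking genes were SPBTRNAASP.03, separated from centromere 2 by 3 bases, and SPBTRNALYS.08, 296 bases from it on the other side.

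The amino acids were unevenly represented near the centromeres. Valine had 9 of 12 genes within 100 kb, isoleucine 6 of 9, phenylalanine 3 of 5 and alanine 7 of 12. Arginine had 6 of 12, glutamic acid 5 of 10 and aspartic acid 4 of 8, among which SPBTRNAASP.03 reads as arginine by its sequence, as described below. Proline with 9 genes, glutamine with 6, histidine with 4 and tryptophan with 3 had no gene there, and serine had 1 of 13. Most genes of an amino acid near the centromeres are copies of 1 sequence, so these shares count few independent placements.

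**Figure D2:**
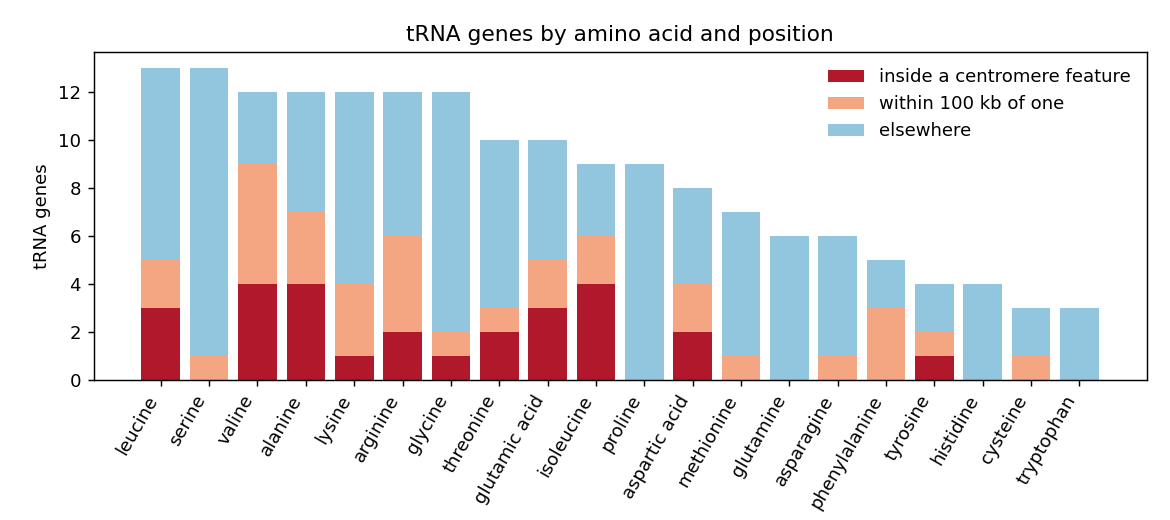
Number of nuclear tRNA genes for each amino acid, split into genes inside a centromere feature, within 100 kb of one, and elsewhere. Valine had 9 of 12 genes inside or near the centromeres and proline 0 of 9.

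Neighbouring tRNA genes formed 167 pairs, with gaps from 5 to 453543 bases. In 47 pairs the gap was under 2 kb, with a median of 346 bases and a longest gap of 1848. The other 120 pairs started at 2573 bases and had a median of 68157.5 bases. The widest stretch without a tRNA gene was 453543 bases, between SPBTRNAPRO.08 and SPBTRNALYS.09 on chromosome 2. On chromosome 1 the widest was 442363 bases, between SPATRNAILE.01 and SPATRNAVAL.03, and on chromosome 3 it was 238505 bases, between SPCTRNAARG.08 and SPCTRNAILE.09. The most isolated genes of chromosomes 2 and 3 were the arginine gene SPBTRNAARG.05, with 200092 bases to the nearest tRNA gene, and the phenylalanine gene SPCTRNAPHE.04, with 141898 bases. The gene nearest any chromosome end was SPCTRNAHIS.03, 71399 bases from the left end of chromosome 3, whose last gene on the right was SPCTRNAASP.08, 313405 bases from that end. The outermost genes of chromosome 1 were SPATRNAPRO.01 and SPATRNASER.04, 365154 and 141305 bases from the ends. On chromosome 2 the outermost genes were SPBTRNAGLY.03 and SPBTRNAASN.04, 180993 and 329678 bases from the ends.

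**Figure D3:**
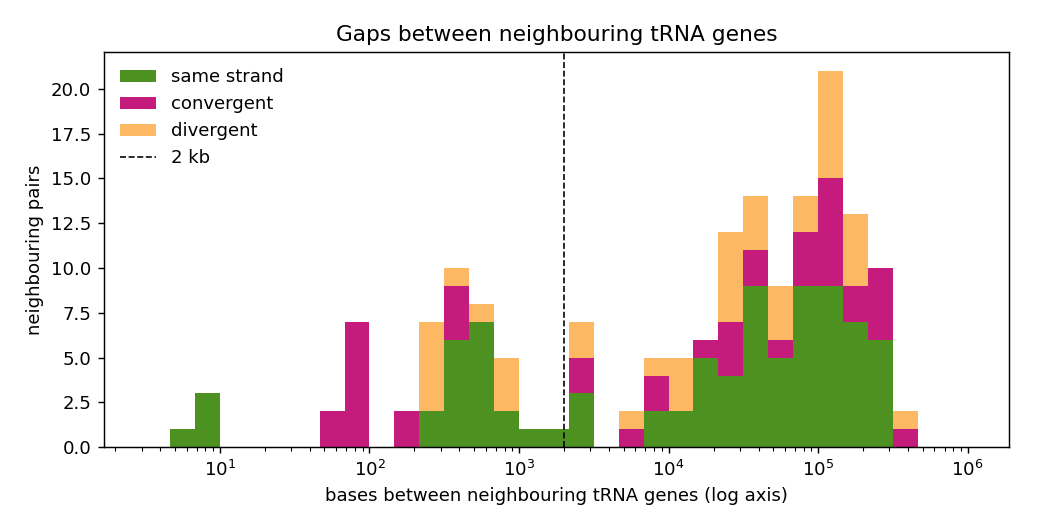
Bases between neighbouring tRNA genes on a log axis, with the number of pairs stacked by orientation and a dashed line at 2 kb. The 47 pairs left of the line have a median gap of 346 bases, and the 13 pairs under 100 bases are convergent or on the same strand.

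Joined at gaps under 2 kb, 65 genes (38.2%) fell into 18 clusters of at least 2 genes, and 105 genes stood alone. There were 10 clusters of 2 genes, 3 clusters of 3 and 2 clusters of 4, and the others held 8, 9 and 11. Chromosome 2 had 35 of its 67 genes in clusters, chromosome 3 had 20 of 47 and chromosome 1 had 10 of 56. Clustering went together with the centromeres. Near them, 50 of 60 genes (83.3%) belonged to 11 clusters, and elsewhere 15 of 110 genes (13.6%) belonged to 7. Of the 8 clusters with 3 genes or more, 7 were near a centromere. The exception was a group of glutamine genes, SPBTRNAGLN.01 to SPBTRNAGLN.03, at 257454 to 258919 on chromosome 2.

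The largest cluster held 11 genes with identifiers of 11 different amino acids in 4265 bases, at 1597996 to 1602260 on the left of centromere 2. Its genes were, in chromosomal order, asparagine, methionine, tyrosine, leucine, glycine, lysine, isoleucine, alanine, valine, glutamic acid and a last gene named for aspartic acid. Of these, 4 lay on the plus strand and 7 on the minus strand. The 9-gene cluster on the other side, at 1643849 to 1647355, started inside the feature with 3 genes and ended outside it. It ran tyrosine, leucine, glycine, lysine, isoleucine, alanine, valine, glutamic acid and arginine, with 3 genes on the plus strand and 6 on the minus strand. The 8-gene cluster at 1065044 to 1071175 lay at the left edge of centromere 3. Its order was alanine, valine, serine, arginine, aspartic acid, arginine, leucine and lysine, and only the lysine gene SPCTRNALYS.10 was inside the feature.

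**Figure D4:**
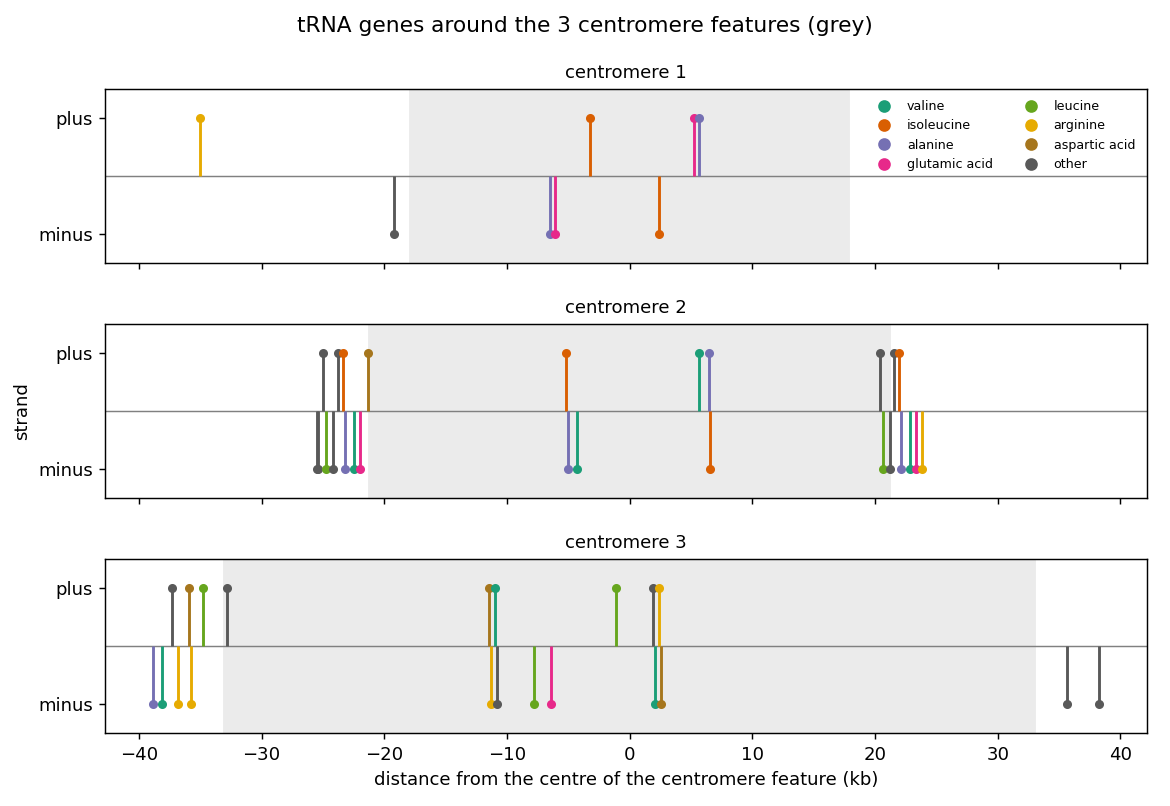
tRNA genes within 45 kb of the centre of each centromere feature (grey), in kb from that centre, drawn upwards on the plus strand and downwards on the minus strand and coloured by the amino acid of the identifier. The 6 genes inside centromere 1 and 10 of the 12 inside centromere 3 form mirrored sets, and 9-gene and 11-gene clusters flank centromere 2.

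The clusters at the centromeres were largely copies of each other. At centromere 2, 8 genes from SPBTRNATYR.02 to SPBTRNAGLU.06 recurred as SPBTRNATYR.03 to SPBTRNAGLU.07 in the same order and orientation, 45338 bases further along. The 2 blocks were each 3052 bases long and matched at 3051 bases (99.97%). The isoleucine, alanine and valine genes of this block occurred 2 more times inside the feature. The left inner copy, SPBTRNAILE.06 to SPBTRNAVAL.06, matched the outer one at all 964 bases, and the exact match ended 3 bases beyond the genes on either side. The right inner copy, SPBTRNAVAL.07 to SPBTRNAILE.07, was inverted and matched the left inner one at 956 of 964 bases.

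At centromeres 1 and 3 the repetition was a mirror image. On centromere 1 the 3356 bases from the alanine gene SPATRNAALA.04 over SPATRNAGLU.03 to SPATRNAILE.03 recurred inverted, without a mismatch, as SPATRNAILE.04 to SPATRNAALA.05. On centromere 3 the 3749 bases that hold SPCTRNAASP.06, SPCTRNAARG.12, SPCTRNAVAL.09, SPCTRNATHR.08 and SPCTRNALEU.12 recurred inverted with 0 mismatches. The identical stretch extended 1816 bases beyond the aspartic acid gene and 878 beyond the leucine gene. Of the 27 genes inside the centromere features, 22 lay in the innermost repeats named imr and 1, SPCTRNAGLU.10, in the central core cnt3 of chromosome 3, which had no partner on the other side. The remaining 4 were SPCTRNALYS.10 and the first 3 genes of the 9-gene cluster. In the annotation the imr repeat on the left of centromere 2 is named imr2r and that on the right imr2L, the reverse of the order on the other chromosomes.

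Identical copies were common in general. Only 63 different sequences remained for the 170 genes after removing introns as RefSeq gives them, and 68 with introns kept. The count of 63 keeps SPBTRNALYS.07 and SPBTRNASER.06 apart from their identical copies, because RefSeq gives those copies introns of another length. An identical copy of the whole gene existed for 133 genes (78.2%). This applied to all 27 genes inside the centromere features, to 57 of 60 within 100 kb and to 76 of 110 elsewhere. Of the 27 inside, 15 had an identical copy more than 100 kb from any centromere. With introns kept, 31 families had more than 1 member. Of these, 5 with 22 genes in all were found only within 100 kb of a centromere and 12 only elsewhere. Besides valine AAC, isoleucine AAT and leucine CAA, the centromeric families were a lysine CTT and a tyrosine GTA pair of the repeated block at centromere 2. Without introns, the valine family and the tyrosine pair equalled the distant genes SPATRNAVAL.03 and SPATRNATYR.01. SPBTRNALYS.08 of the lysine pair then equalled the family of SPATRNALYS.04, which has distant members. Its partner SPBTRNALYS.07, the same gene sequence, did not, only because RefSeq gives it an intron of 7 bases and SPBTRNALYS.08 one of 8. The largest family without a centromeric member was proline AGG, with 6 genes.

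Isoleucine showed the most compact contrast between a centromeric and a distant family with the same anticodon. Its 6 centromeric AAT genes, represented by SPATRNAILE.03 above, and its 2 distant ones, SPATRNAILE.01 and SPCTRNAILE.09, had the same length of 74 bases.
SPATRNAILE.01 (chromosome 1, 1772296 to 1772369, plus strand): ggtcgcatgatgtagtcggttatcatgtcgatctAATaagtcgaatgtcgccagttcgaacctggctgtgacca
Counted from the 5′ end of the gene, the distant sequence differed from the centromeric one by G53A and C63T. Both changes fell in the stretch where the B box was searched, so that the 6 centromeric genes held the exact box and the 2 distant ones did not. The centromeric lysine CTT pair differed from the 6-gene lysine family at 5 bases, from T40C to C47T, all within the 8 bases that RefSeq gives as the intron of SPBTRNALYS.08.

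The strands were nearly balanced, with 90 genes (52.9%) on the plus strand and 80 on the minus strand, beside 49.6% of protein-coding genes on the plus strand. By chromosome the plus strand held 30 of 56, 34 of 67 and 26 of 47 genes. Near the centromeres 26 of 60 genes (43.3%) and elsewhere 64 of 110 (58.2%) were on the plus strand. Since mirrored copies contribute 1 gene to each strand and direct copies 2 to the same one, the near genes are not independent placements. Inside the features the strands were split 3 to 3, 4 to 5 and 6 to 6. Of the 18 clusters, 10 held genes of both strands.

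The orientation of neighbours was similar on both sides of 2 kb. Of the 120 pairs at 2 kb or more, 61 were on the same strand, 28 convergent and 31 divergent. Of the 47 closer pairs, 23 were on the same strand, 14 convergent and 10 divergent. Among the 13 pairs under 100 bases, 9 were convergent, 4 on the same strand and 0 divergent, but most of these convergent pairs belong to the repeated blocks described above. All 9 convergent pairs lay inside a centromere feature or within 5 kb of one and combined few amino acids. Isoleucine and alanine genes faced each other across 73 bases in 4 places at centromere 2, aspartic acid and arginine across 82 or 87 bases in 3 places at centromere 3, and valine and threonine across 66 bases in 2 places inside centromere 3.

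The 4 same-strand pairs were the tightest of all. In 3 of them a serine gene was followed after 7 bases by a methionine gene of the family that RefSeq notes as initiator, and in fission yeast such genes are known to be transcribed together. The pairs SPATRNASER.01 with SPATRNAMET.01 and SPATRNASER.03 with SPATRNAMET.03 were on chromosome 1, and SPCTRNASER.11 with SPCTRNAMET.07 was on chromosome 3. None was within 100 kb of a centromere. The pair with SPATRNASER.03 is shown with its spacer in capitals, which was the same in all 3 pairs.
SPATRNASER.03 and SPATRNAMET.03 (chromosome 1, 4265149 to 4265324, plus strand): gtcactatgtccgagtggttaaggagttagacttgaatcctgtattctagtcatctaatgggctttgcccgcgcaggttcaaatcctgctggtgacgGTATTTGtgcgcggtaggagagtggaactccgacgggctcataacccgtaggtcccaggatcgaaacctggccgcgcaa
The fourth pair was in the 11-gene cluster at centromere 2, where the methionine gene SPBTRNAMET.05 lay 5 bases upstream of the asparagine gene SPBTRNAASN.01, both on the minus strand.
SPBTRNAMET.05 and SPBTRNAASN.01 (chromosome 2, 1597996 to 1598155, minus strand): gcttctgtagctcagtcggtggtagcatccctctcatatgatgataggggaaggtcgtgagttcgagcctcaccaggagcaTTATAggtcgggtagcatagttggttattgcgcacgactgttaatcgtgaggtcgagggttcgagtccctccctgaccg
The spacer of this pair was shorter and had a different sequence from that of the serine and methionine pairs.

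Behind 166 of the 170 genes (97.6%) a run of at least 4 T started within 50 bases, which is the form of an RNA polymerase III terminator. It began a median of 3 bases after the gene and within 10 bases for 145 genes. Such a run was present in 39% of all 50-base windows of the genome. The 4 genes without it were SPATRNASER.01, SPATRNASER.03, SPCTRNASER.11 and SPBTRNAMET.05, which are the upstream members of the 4 same-strand pairs just described. In each of these pairs the downstream gene had the run.

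The exact B box, searched on the gene's strand, was found in 96 genes (56.5%), always starting 22 bases before the gene's end. It was found in 34 of 60 genes near the centromeres (56.7%) and in 62 of 110 elsewhere (56.4%). The opposite strand held it in 1 gene, and with 1 mismatch allowed the count on the gene's strand was 116. Presence followed the tRNA family. All genes for glycine, glutamic acid, aspartic acid, glutamine, asparagine, histidine and phenylalanine had the exact box, as did 11 of 12 for arginine and 11 of 13 for leucine. None of the 12 lysine, 7 methionine, 4 tyrosine, 3 cysteine and 3 tryptophan genes had it, and 1 of 12 alanine genes did. On both strands of the 3 chromosomes the motif occurred 120 times, of which 97 were inside tRNA genes. On either strand it was in 0.0675% of all 80-base windows. A missing match says only that these letters are not in the gene.

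One of the 23 matches outside annotated tRNA genes lay inside a centromere feature and belonged to a tRNA copy that the deposited annotation does not list. When each of the 68 gene sequences was searched on both strands, 171 exact copies were found, 170 at annotated genes and 1 at 1602347 to 1602417 on chromosome 2. It was identical to the 7-gene aspartic acid GTC family and lay on the minus strand, 86 bases from SPBTRNAASP.03 and convergent with it. RefSeq has a tRNA gene, SPBTRNAASP.05, at this position on the plus strand, labelled as asparagine, whose reverse complement is the aspartic acid sequence.

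The neighbouring gene SPBTRNAASP.03 was the only 1 of the 170 whose anticodon did not match its identifier. Its sequence carries ACG, which reads an arginine codon, and was identical to the 7 arginine genes of the SPATRNAARG.02 family. RefSeq names the gene of this span and strand SPBTRNAARG.06, an arginine identifier. An aspartic acid gene is printed for comparison, with the anticodon and B box in capitals.
SPBTRNAASP.03 (chromosome 2, 1602188 to 1602260, plus strand): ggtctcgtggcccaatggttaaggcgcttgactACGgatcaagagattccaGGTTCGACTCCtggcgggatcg
SPATRNAASP.01 (chromosome 1): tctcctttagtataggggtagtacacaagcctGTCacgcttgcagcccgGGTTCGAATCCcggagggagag
With these sequences the end of the 11-gene cluster and the neighbouring copy form a convergent arginine and aspartic acid pair 86 bases apart, beside the 3 such pairs of 82 or 87 bases at centromere 3.

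Other labels departed from the sequence more mildly. The product name differed from the identifier for 6 genes. The chromosome 3 aspartic acid genes SPCTRNAASP.05 to SPCTRNAASP.08 were named asparagine, SPBTRNAGLY.06 was named lysine although its anticodon was GCC, and SPCTRNAVAL.12 was named a pseudogene although it was identical to the other 7 genes of the SPATRNAVAL.04 family. An anticodon was noted for 99 genes and equalled the one read from the sequence in all 99. A separate field for the codon and amino acid equalled the sequence in 157 of 169 genes.

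Gene lengths ran from 71 to 102 bases, with a median of 73. The longest was the arginine gene SPBTRNAARG.05, which also had the longest intron, of 30 bases, directly behind the base that follows its CCT anticodon. The deposited annotation marks introns in 12 tRNA genes, all on chromosome 1. RefSeq, which has a gene of the same span and strand for all 170, splits 44 genes into 2 exons, 16 on chromosome 1, 17 on chromosome 2 and 11 on chromosome 3. The 12 deposited introns had the RefSeq length in all 12 cases. RefSeq introns were 7 to 30 bases long, with a median of 9.5, and 43 of 44 began directly behind the base that follows the anticodon. Intron genes made up 19 of 60 genes near the centromeres and 25 of 110 elsewhere. By amino acid the 44 were 9 valine, 9 lysine, 8 leucine, 6 serine, 4 tyrosine, 3 methionine and 2 arginine genes and 1 gene each for alanine, isoleucine and proline. Tyrosine was the only amino acid with an intron in all its genes.

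Distances to protein-coding genes were set beside those of all 80-base windows of the same regions. For the 110 tRNA genes elsewhere the nearest coding gene was a median of 307.5 bases away and within 1 kb for 108 (98.2%), which equals the 98.2% of windows. For the 60 genes near a centromere the median was 3977.5 bases. Of these, 10 (16.7%) had a coding gene within 1 kb, beside 77.2% of windows. The windows are not matched in position, since 51 of the 60 genes lay inside a feature or within 5 kb of one. Coding genes overlapped 66.6% of the windows near a centromere and 83.8% of those elsewhere. The windows that overlapped none had a median distance of 7391 bases near a centromere and 255 bases elsewhere. The nearest coding gene was on the same strand for 82 of the 162 tRNA genes that did not overlap one, and 8 overlapped an annotated mRNA. An LTR lay within 1 kb of 6 tRNA genes (3.53%), 4.55% of those elsewhere and 1.67% of those near a centromere. The share was 7% for protein-coding genes. Distances run from the ends of a gene, so a longer gene spans more sequence, and these shares were not matched for length. The closest was 3 bases from the valine gene SPATRNAVAL.01.

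The protein-coding genes of the tRNA transcription machinery were looked up as a list of 14, the TFIIIC subunits sfc1, sfc3, sfc4, sfc6, sfc7 and sfc9, the TFIIIB components brf1, bdp1 and tbp1, the polymerase subunits rpc1 and rpc2, the polymerase III repressor maf1, the La protein sla1, which binds the ends of new tRNAs, and the tRNA ligase trl1. All 14 were found by name, and 0 lay within 100 kb of a centromere feature, beside 5.14% of all protein-coding genes. Their nearest tRNA genes were between 13095 and 116250 bases away, and 3.8% of all protein-coding genes had a tRNA gene within 1 kb, so a list of this size holds few or none by either measure. The closest was sfc3, and the farthest was brf1.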

How the data were processed

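The authors deposited 1 annotation table in GFF form with 2 H3K9me2 ChIP-seq libraries of Swi6D cells. Per the file, its columns are feature positions and names, and its score column is empty. The aligner and genome build are not given in the sources used here. Chromosome lengths equal those of RefSeq ASM294v3, from which sequences, tRNA exons and coding sequences were taken by position.

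Distances are bases between features. Genes under 2 kb apart were joined into clusters. Anticodons were read as the triplet that scored best as the centre of a loop of 7 bases. The score counted pairs in a stem of 5 and the bases beside the triplet, and a full stem was not required. Genes with the same first 30 bases shared the best position. For 10 of 170 genes the score was below the maximum, and 1 such reading was tied. Cluster joining and anticodon reading were tested on simulated data. Python 3.11.15, scipy 1.17.1 and matplotlib 3.10.9 were used. Named genes were those inside or within 5 kb of the centromere features, members of clusters of at least 3 genes, pairs under 100 bases, the most isolated and outermost genes, extremes of length, and a list of RNA polymerase III genes. Genes named for label or family differences were chosen after their values were seen. The members and lists were chosen with earlier results of these data known.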

Additional observations from a re-analysis of the deposited data

How the results depend on the processing

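Alternatives were computed in 21 cases, 16 planned and 5 chosen after seeing the data. Of these, 18 stayed within 1.5 times the reported count or, for the strand share, within its 95% binomial interval. That interval served only as a margin. It treats genes as independent, which copies are not, and the clustered genes set against it are part of the same genes. The other 3 moved. Counting only genes inside the centromere features gave 27 instead of 60, RefSeq exons gave 44 genes with an intron instead of 12, and an LTR limit of 500 bases gave 3 tRNA genes instead of 6. Gaps under 1 kb gave 17 clusters with 62 genes and gaps under 5 kb 20 clusters with 74 genes. Windows of 50 kb and 200 kb around the centromere features held 56 and 68 genes. Adding the exact copy that the annotation does not list gave 171 genes, 61 near a centromere and a largest cluster of 12. All 5 alternatives chosen after seeing the data were this 1 addition. A single added gene could not move these counts by 1.5 times, so those 5 say little about stability. No paired analysis was possible because nothing here was compared between the libraries. The main limit is that positions say nothing of transcription or H3K9me2 at these genes.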

Other observations

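The notes of 90 tRNA genes give a Cove score, which rates how well a sequence matches the tRNA structure model, for 51 genes on chromosome 1, 1 on chromosome 2 and 38 on chromosome 3. Scores ran from 40.63 for the arginine gene SPATRNAARG.01 to 86.64 for the asparagine gene SPCTRNAASN.05, with a median of 69.54. Of 20 sequences scored in at least 2 copies, 7 carried different scores in different copies. The serine family of SPATRNASER.02 had 80.47 in its 2 chromosome 1 genes and 59.19 in 3 chromosome 3 genes. The arginine family of SPATRNAARG.02 had 54.83 in SPATRNAARG.03 and SPCTRNAARG.11 and 75.46 in SPCTRNAARG.09, SPCTRNAARG.12 and SPCTRNAARG.13. SPCTRNAVAL.12, the gene named a pseudogene, had 40.82, while SPATRNAVAL.04, SPCTRNAVAL.09 and SPCTRNAVAL.10 with the same sequence had 64.30. In the lysine family SPCTRNALYS.10 had 57.56 and the other 4 scored genes 74.69.

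Intron positions in RefSeq were also not equal between identical genes. SPBTRNALYS.07 has an intron of 7 bases and its identical copy SPBTRNALYS.08 one of 8 bases. SPBTRNASER.06 has 9 bases and its identical copies SPCTRNASER.10 and SPCTRNASER.13 have 11.

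Of 23 B box matches outside annotated tRNA genes, 2 lay within 100 kb of a centromere feature. One of these was the aspartic acid copy described above.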
